A study of Homo sapiens with 6 samples.

Results

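The chains of collagen and laminin, the structural proteins of the extracellular matrix, were followed in RNA from Cal33, a human cell line established from an oral squamous cell carcinoma. The members were defined by name, a choice made with earlier results of these data known. They were all rows of the deposited gene table with a collagen or laminin symbol. Collagen symbols are COL, a number, A and a number, and laminin symbols are LAM, a letter from A to C and a digit. This gave 39 of the 14136 entries in the table, 28 collagen and 11 laminin chains. The 6 libraries form 2 groups of 3: Vector, cells stably transduced with lentivirus carrying the empty pSin-EF2 plasmid, and CES2, cells transduced with the same plasmid carrying FLAG-tagged CES2, which encodes carboxylesterase 2, an ester-cleaving enzyme of the endoplasmic reticulum. Both groups were selected with puromycin at 0.5 ug/ml, and lentivirus was packaged in 293FT, a human embryonic kidney line. Whether replicate libraries stem from separate cultures or transductions is not stated in the labels. All p-values measure only the spread between these libraries, which may be technical.

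Laminins are heterotrimers of an alpha, a beta and a gamma chain (LAMA, LAMB and LAMC genes) that form a sheet under epithelia and bind integrins on the cell. Type IV collagen forms the network joined to that sheet, and together they make the basement membrane, which squamous carcinomas have to cross when they invade. Fibrillar collagens build the fibres of the stroma and come mostly from fibroblasts, while other collagens anchor, span or decorate these structures. The chains were therefore grouped by role into 17 basement membrane chains (all laminins, COL4A1 to COL4A6, COL15A1 and COL18A1 where listed), 6 fibrillar chains and 16 others.

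Collagen and laminin genes read differently at the level of their codons, and stretches of 30 codons from GENCODE release 29 are shown to make that visible. Capitals mark codons that begin with GG, which all encode glycine. In the triple helix of collagen glycine returns at a fixed period, so such a codon should return every 9 bases.
COL1A1 coding sequence, codons 179 to 208: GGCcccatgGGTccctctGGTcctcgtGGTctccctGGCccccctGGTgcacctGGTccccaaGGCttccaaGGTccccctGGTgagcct
COL17A1 coding sequence, codons 644 to 673: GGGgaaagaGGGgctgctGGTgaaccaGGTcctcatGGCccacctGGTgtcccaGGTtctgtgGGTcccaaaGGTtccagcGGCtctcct
COL4A1 coding sequence, codons 209 to 238: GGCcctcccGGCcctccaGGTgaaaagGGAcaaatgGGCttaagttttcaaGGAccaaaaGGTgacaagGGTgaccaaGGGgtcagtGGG
LAMB3 coding sequence, codons 301 to 330: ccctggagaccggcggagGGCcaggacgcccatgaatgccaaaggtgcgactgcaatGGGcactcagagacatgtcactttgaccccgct
The COL1A1 and COL17A1 stretches keep the period throughout, the COL4A1 stretch loses it at codons 224 to 225 and takes it up again, and the LAMB3 stretch has 2 glycine codons with no period. Over the longest complete coding sequence of each gene, the unbroken run of glycine triplets reached 338 in COL1A1 and COL11A2 and 217 in COL27A1. It was at most 40 in COL4A1, 66 in COL4A2, 42 in COL4A5 and 38 in COL4A6, whose repeat was divided into 22 to 26 runs of at least 5 triplets. Division was not particular to type IV: COL7A1 had 20 runs, the longest of 75 triplets, COL16A1 had 21, the longest of 57, and COL17A1 had 16, the longest of 55. The stretches of COL1A1 and COL17A1 start at the longest run of each gene, whereas that of COL4A1 was placed on a break. In the 11 laminin genes no run of 5 triplets was present.

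Both pairs of type IV genes shown here lie head to head, and their RefSeq promoter windows (GRCh38.p14, 250 bases before to 50 after the start) are shown because each pair is compared below. Capitals mark the bases that a window shares, on the opposite strand, with that of its partner.
COL4A1, minus strand, chr13:110307108-110307407: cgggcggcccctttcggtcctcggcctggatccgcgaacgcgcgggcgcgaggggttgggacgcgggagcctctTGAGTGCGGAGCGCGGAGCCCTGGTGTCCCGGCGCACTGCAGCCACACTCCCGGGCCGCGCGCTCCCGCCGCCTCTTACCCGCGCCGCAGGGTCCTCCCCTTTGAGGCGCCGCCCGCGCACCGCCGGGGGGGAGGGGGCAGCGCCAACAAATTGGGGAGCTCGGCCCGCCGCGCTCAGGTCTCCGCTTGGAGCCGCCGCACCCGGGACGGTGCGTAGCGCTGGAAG
COL4A2, plus strand, chr13:110307034-110307333: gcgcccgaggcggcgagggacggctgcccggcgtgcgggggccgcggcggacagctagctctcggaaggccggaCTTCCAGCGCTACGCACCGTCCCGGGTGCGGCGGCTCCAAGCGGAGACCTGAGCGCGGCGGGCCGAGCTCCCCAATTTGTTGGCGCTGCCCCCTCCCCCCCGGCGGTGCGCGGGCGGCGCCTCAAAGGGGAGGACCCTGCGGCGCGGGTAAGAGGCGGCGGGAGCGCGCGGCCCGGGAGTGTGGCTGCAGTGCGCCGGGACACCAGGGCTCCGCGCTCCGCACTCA
COL4A6, minus strand, chrX:108439409-108439708: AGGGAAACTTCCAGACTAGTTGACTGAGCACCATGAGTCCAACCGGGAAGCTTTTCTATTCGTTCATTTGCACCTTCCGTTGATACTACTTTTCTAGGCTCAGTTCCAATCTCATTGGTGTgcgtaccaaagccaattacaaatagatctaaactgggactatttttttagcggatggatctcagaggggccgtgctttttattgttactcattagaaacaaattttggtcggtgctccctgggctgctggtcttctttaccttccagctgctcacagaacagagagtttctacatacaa
COL4A5, plus strand, chrX:108439588-108439887: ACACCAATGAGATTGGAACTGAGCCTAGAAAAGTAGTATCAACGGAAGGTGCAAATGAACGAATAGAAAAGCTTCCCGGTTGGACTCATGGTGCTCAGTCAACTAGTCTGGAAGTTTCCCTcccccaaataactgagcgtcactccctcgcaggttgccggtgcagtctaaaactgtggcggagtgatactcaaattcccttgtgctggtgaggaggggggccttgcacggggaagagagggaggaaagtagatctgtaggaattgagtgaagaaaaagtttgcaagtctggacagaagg
The starts of COL4A1 and COL4A2 are 127 bases apart and their windows share 226 bases. The starts of COL4A5 and the upstream of the 2 starts of COL4A6 are 380 bases apart and their windows share 121 bases, but the transcript listed for COL4A6 begins at 108438430, near the other start. Of the 24 chains abundant enough to be tested, 19 had a window in the RefSeq table. GGGCGG, the core of the GC box, was found on either strand in 17 of these 19 genes, against 48.3% of all 27305 genes with a window. All genes include those too low to be tested, and a gene counted if any of its windows matched. The windows of the tested chains had a median GC content of 62.8%, beside 58.7% for all windows. The AP-1 heptamer TGACTCA, whose reverse complement is TGAGTCA, was found in LAMA3 and LAMB3, 2 of 19, against 6.05% of all genes. In LAMB3 only the window with its start at 209651374 held the heptamer, and those with starts at 209652329 and 209652425 did not. The listed LAMB3 transcript begins at 209652466, near the starts without it. The LAMA3 and LAMB3 windows with a match are shown with the heptamers in capitals, because these genes encode partners of one laminin.
LAMA3, plus strand, chr18:23872770-23873069: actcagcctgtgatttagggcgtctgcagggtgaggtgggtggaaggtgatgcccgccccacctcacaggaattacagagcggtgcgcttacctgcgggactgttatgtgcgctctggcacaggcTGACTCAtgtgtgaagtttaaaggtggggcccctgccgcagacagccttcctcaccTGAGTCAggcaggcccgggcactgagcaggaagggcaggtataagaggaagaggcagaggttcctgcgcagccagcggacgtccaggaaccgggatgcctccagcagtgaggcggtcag
LAMB3, minus strand, chr1:209651325-209651624: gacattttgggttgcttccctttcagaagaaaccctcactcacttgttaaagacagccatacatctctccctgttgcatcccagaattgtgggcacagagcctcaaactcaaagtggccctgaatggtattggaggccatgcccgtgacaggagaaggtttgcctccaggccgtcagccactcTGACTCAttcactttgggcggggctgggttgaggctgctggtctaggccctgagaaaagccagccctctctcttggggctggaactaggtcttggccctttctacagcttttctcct
TATAAA was found in 4 of the 19 (COL17A1, COL18A1, COL6A2 and COL7A1) and CCAAT in 7, against 14.0% and 39.7% of all genes. A match describes the letters in the window and shows no binding.

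Levels are given as TPM, a transcript abundance scaled to one total per library, which divides by transcript length and so allows genes to be compared. Each library sums to just under 1000000 TPM. TPM keeps no sequencing depth, so no counting error can be given. In bulk RNA, fewer cells that express a gene and less of its RNA per cell cannot be told apart. CES2 itself was at 45.6, 41.9 and 44.9 TPM in the Vector libraries against 2664, 1929 and 2294 in the CES2 libraries. Values are given in the order of the replicate numbers, for which the labels give no meaning beyond the name. Of 9 squamous epithelial markers all were detected (KRT5 at a mean of 1814 TPM, TP63 at 89.9 TPM), although KRT14, a partner of KRT5, was at only 1.98 TPM. None of 8 fibroblast markers was among the entries of the table. Of 5 endothelial markers CDH5 stood at a mean of 16.1 TPM, VWF at 1.13 and PECAM1 at 0.287 TPM, and the summed level of the list was 10.2 to 25.8 TPM in Vector and 11.2 to 20.5 TPM in CES2. The leukocyte list had CD68 at 7.63 TPM and LYZ at 0.202 TPM, with PTPRC and CD3E not among the entries.

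Summed over chains, basement membrane chains in Cal33 stood far above fibrillar ones, and laminins above collagens. Single chains did not all follow the sums. By mean, fibrillar COL27A1 at 15.1 TPM stood above COL4A1 at 13.8 TPM, and COL17A1 at 62.4 TPM above LAMA3 at 36.8 TPM. The 39 chains together held between 730.0 and 1296 TPM per library. Laminins made up 76.1% to 80.4% of that sum, and basement membrane chains 84.0% to 88.1%. LAMA5 and LAMB3 alone took 43.3% to 47.6%. The 6 fibrillar chains with an entry summed to 17.4 to 29.7 TPM. Of the 39 chains, 24 reached at least 1 TPM in at least 3 libraries and were tested: 13 basement membrane, 3 fibrillar and 8 other chains. By mean level, LAMA5 stood above 94.6% of the 12210 genes tested and LAMB3 above 93.2%, whereas COL1A1 stood above 17.6% and COL11A2 above 0.8%.

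**Figure D1:**
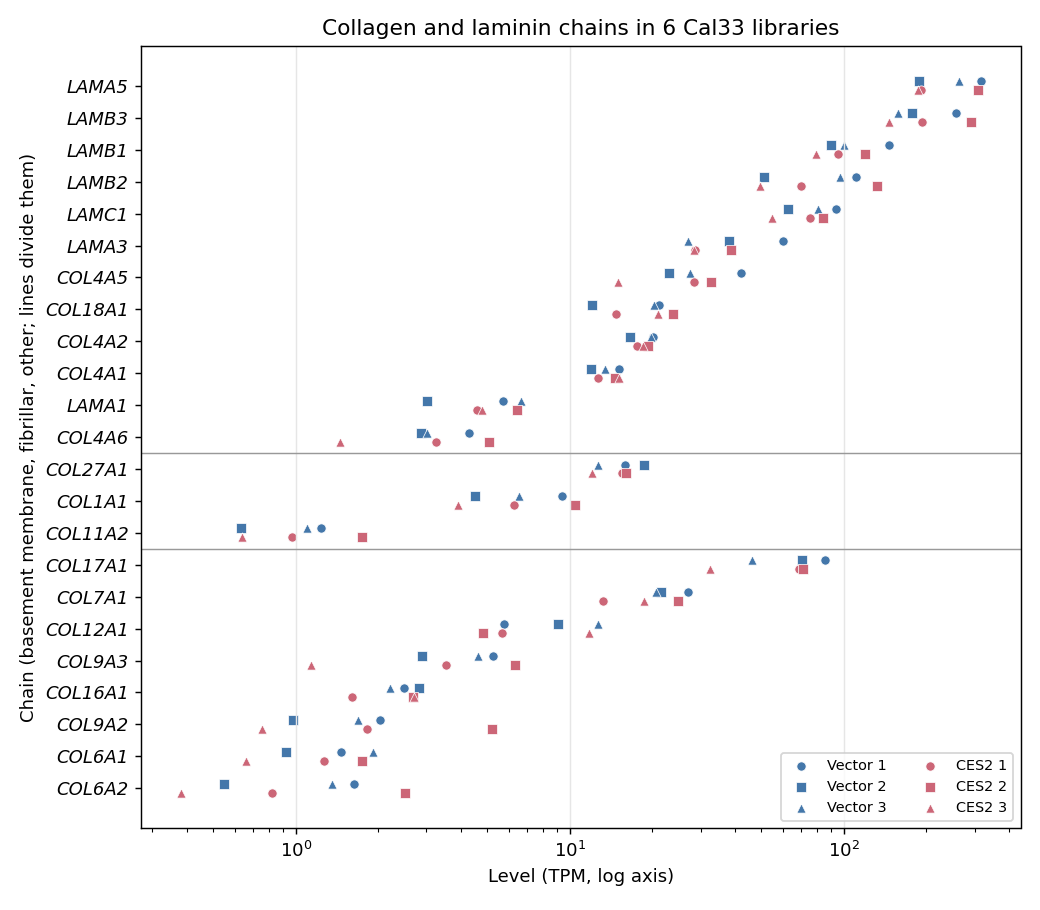
Level of 23 of the 24 tested chains (TPM, log axis) in 3 Vector libraries (blue) and 3 CES2 libraries (red), by role and then by mean. Laminin chains lead, up to 315 TPM for LAMA5, while fibrillar chains stay under 20 TPM, and blue and red symbols overlap in every row.

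The laminin alpha chains were led by LAMA5, the alpha chain of most adult epithelial basement membranes (ENSG00000130702, chromosome 20 from 62309065 to 62367312, minus strand, GRCh38). LAMA5 was at 315, 188 and 264 TPM in the Vector libraries against 192, 309 and 186 in the CES2 libraries. Vector 1 and CES2 2 were high in their groups and the groups overlapped. LAMA3, the alpha chain of the laminin to which basal keratinocytes attach through hemidesmosomes, was at 60.0, 38.1 and 26.9 TPM in the Vector libraries against 28.6, 38.8 and 28.4 in the CES2 libraries. Only Vector 1 stood clear of the other libraries. The transcript listed for LAMA3 (chromosome 18 from 23689443) starts upstream of the RefSeq window shown, whose start is at 23873020. TPM per gene does not divide the long from the short form. LAMA1, the alpha chain of early embryonic basement membranes, was at a mean of 5.12 ± 1.89 TPM (SD, n = 3) without the enzyme construct and 5.26 ± 1.00 TPM (SD, n = 3) with it. LAMA2, the alpha chain of muscle, and LAMA4, that of vessel walls, did not reach 1 TPM in any library.

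Among beta chains LAMB3, the partner of LAMA3, was highest, at 258, 177 and 158 TPM in the Vector libraries against 193, 292 and 146 in the CES2 libraries. LAMB1, the beta chain of widely distributed laminins, was at 146, 89.7 and 100.5 TPM in the Vector libraries against 95.1, 119 and 78.9 in the CES2 libraries. LAMB2, which replaces LAMB1 in kidney filter and synapse laminins, was at 111, 51.2 and 97.1 TPM in the Vector libraries against 70.0, 132 and 49.3 in the CES2 libraries. In all 3 genes CES2 2 was the highest CES2 library and CES2 3 the lowest, and the ranges of the groups overlapped. The gamma chain LAMC1, common to most laminins, was at 93.7, 62.4 and 80.3 TPM in the Vector libraries against 75.2, 84.1 and 54.7 in the CES2 libraries. The ranges of the groups overlapped.

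Type IV collagen was led by COL4A5, an X-linked chain that is mutated in Alport syndrome. COL4A5 was at 42.1, 23.1 and 27.5 TPM in the Vector libraries against 28.5, 32.8 and 15.0 in the CES2 libraries. Its head-to-head neighbour COL4A6 was at 4.30, 2.87 and 3.02 TPM in the Vector libraries against 3.26, 5.06 and 1.46 in the CES2 libraries. COL4A1 and COL4A2 encode the chains of the common type IV trimer. COL4A1 was at 15.1, 12.0 and 13.5 TPM in the Vector libraries against 12.7, 14.6 and 15.1 in the CES2 libraries. COL4A2 was at 20.2, 16.6 and 19.9 TPM in the Vector libraries against 17.6, 19.2 and 18.6 in the CES2 libraries. These were the steadiest of the 24 tested chains across the libraries: COL4A2 lay between 16.6 and 20.2 TPM in all 6 and COL4A1 between 12.0 and 15.1 TPM. The transcript listed for COL4A2 has only 5 exons and 491 bases and begins inside COL4A1 on the opposite strand, and how its TPM was computed is not given in the sources used here. COL4A4 stayed below 1 TPM. COL18A1, the source of endostatin, was at 21.2, 12.1 and 20.3 TPM in the Vector libraries against 14.7, 23.8 and 21.0 in the CES2 libraries.

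Among fibrillar chains COL27A1, known from cartilage, was highest, at 15.9, 18.6 and 12.7 TPM in the Vector libraries against 15.5, 16.1 and 12.1 in the CES2 libraries. COL1A1, the main chain of type I collagen, was at 9.36, 4.49 and 6.54 TPM in the Vector libraries against 6.26, 10.5 and 3.89 in the CES2 libraries. COL11A2, a minor fibrillar chain of cartilage, was at 1.23, 0.629 and 1.10 TPM in the Vector libraries against 0.970, 1.75 and 0.636 in the CES2 libraries. In COL1A1 and COL11A2 the highest and the lowest of the 3 CES2 libraries were again CES2 2 and CES2 3. COL5A1, COL5A2 and COL24A1 stayed below 1 TPM. The chains COL1A2, COL3A1 and COL2A1 had no entry among those analysed here, so the trimer of type I collagen could not be described.

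Of the other collagens, those of the hemidesmosome and its anchorage were highest. COL17A1, a transmembrane collagen of hemidesmosomes also known as a bullous pemphigoid antigen (ENSG00000065618, chromosome 10 from 104031286 to 104086002, minus strand), was at 85.3, 70.2 and 46.3 TPM in the Vector libraries against 68.9, 70.9 and 32.6 in the CES2 libraries. COL7A1, which forms the anchoring fibrils under the basement membrane (chromosome 3 from 48564073 to 48595267, minus strand, 118 exons in the listed transcript), was at 27.1, 21.6 and 20.6 TPM in the Vector libraries against 13.2, 24.8 and 18.6 in the CES2 libraries. For COL7A1, 2 of the 3 CES2 libraries lay below every Vector library, and CES2 2 lay above 2 of the Vector libraries. COL12A1, a fibril-associated chain, was at 5.77, 9.06 and 12.6 TPM in the Vector libraries against 5.67, 4.84 and 11.8 in the CES2 libraries, the reverse of the laminins in that Vector 1 and CES2 2 were lowest. The cartilage chains COL9A2 and COL9A3, the fibril-associated COL16A1 and the beaded filament chains COL6A1 and COL6A2 had means between 1.18 and 4.26 TPM in each group. COL9A3 varied most among chains with a mean above 3 TPM, from 1.14 TPM in CES2 3 to 6.29 TPM in CES2 2.

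The study asks whether CES2 overexpression changed expression, and for these chains no change was detected. In the fit over all 12210 genes (limma on log2(TPM + 1), Benjamini-Hochberg adjustment) 0 of 24 chains passed an adjusted p of 0.05, where 0.00819% of all genes did, which is CES2 alone. At an unadjusted p under 0.05 there were also 0 chains, against 1.09% of all genes. The smallest unadjusted p was 0.271, for COL7A1, and the smallest adjusted p of any chain was 1.00. The groups did not stand apart in any tested chain. Of all tested genes, 2.63% had every CES2 library below every Vector library and 1.07% had the opposite. Shares this small give few genes in 24, so counts of 0 do not set the chains apart from other genes.

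Log2 fold changes were below 0 in 18 of 24 chains, or 75.0%, beside 63.7% of all tested genes, while 6 were above 0, beside 36.3% of all tested genes. Their median was -0.11, beside -0.06 for all tested genes. They were below 0 in 9 of 13 basement membrane chains (median -0.11), 2 of 3 fibrillar chains (median -0.03) and 7 of 8 others (median -0.20). The lowest were -0.32 for COL9A3 with a standard error of 0.45, -0.31 for LAMA3 with 0.30, -0.31 for COL7A1 with 0.27 and -0.30 for COL12A1 with 0.38. The highest were 0.31 for COL9A2 with a standard error of 0.46 and 0.16 for COL18A1 with 0.29. The number of chains above 0, 6 of 24 with all libraries, was 17 when CES2 3 was left out and 13 when Vector 1 was. It was 9 on leaving out Vector 3 or CES2 1, 3 on leaving out Vector 2 and 2 on leaving out CES2 2. Apart from LAMA3, LAMA5, COL7A1 and COL12A1, each chain changed sign on leaving out at least 1 library.

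**Figure D2:**
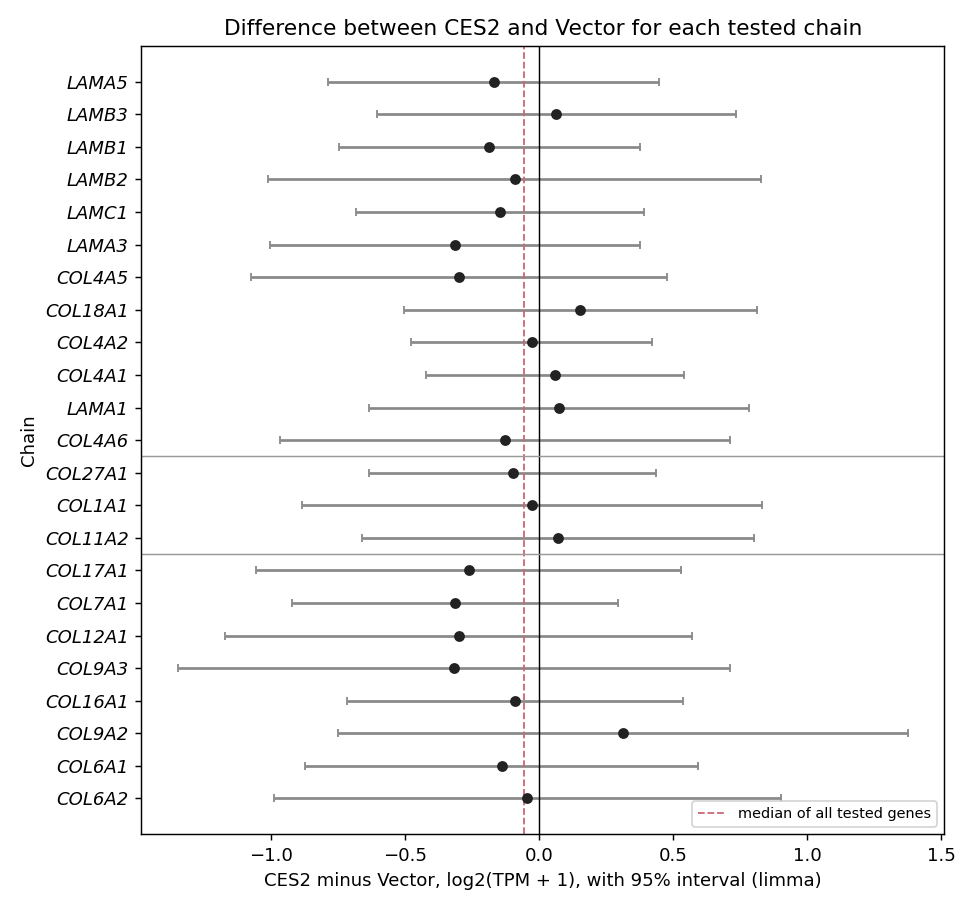
Difference between CES2 and Vector on the log2(TPM + 1) scale for 23 of the 24 tested chains, with 95% intervals from limma, and the median of all tested genes as a dashed line. Every interval spans 0, and the narrowest belong to COL4A2 and COL4A1.

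The intervals say how large a change these libraries could still hold. For 17 of 24 chains the 95% interval lay inside a 2-fold change in either direction on the TPM + 1 scale. The added 1 understates the change of low chains, and 7 of the 24 had a mean under 5 TPM. For such chains, as for COL6A2 at a mean of 1.21 TPM, the interval does not bound the fold change of TPM itself. For COL4A2 it ran from 0.718- to 1.34-fold, for COL4A1 from 0.748- to 1.46-fold and for LAMC1 from 0.623- to 1.31-fold. For LAMA5 it ran from 0.580- to 1.36-fold and for LAMB3 from 0.658- to 1.66-fold. For 7 chains, LAMA3, LAMB2, COL4A5, COL17A1, COL12A1, COL9A3 and COL9A2, the interval reached a 2-fold change on one side. For COL17A1 it ran from 0.481- to 1.45-fold, and for COL9A2 from 0.594- to 2.60-fold. For the 7 chains whose interval reached it, a change of that size was not excluded.

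The larger pattern was between libraries of the same group. In 18 of 24 chains Vector 1 was the highest Vector library and CES2 2 the highest CES2 library, a combination found in 22.7% of all tested genes. It held for 7 of 8 laminin chains, all but LAMA1, and for 11 of 16 collagen chains. The exceptions among collagens were COL4A1, COL27A1, COL12A1, COL16A1 and COL6A1. CES2 3 was the lowest CES2 library in 17 of 24 chains, against 43.2% of all tested genes. The median of the 24 chains, relative to the mean of each chain, was 0.34, -0.20 and 0.02 log2 units for Vector 1 to 3, against -0.06, 0.27 and -0.36 for CES2 1 to 3. The same median over all tested genes lay between -0.09 and 0.14. Deviations of the 24 chains from their group means had a Pearson r of 0.639 between Vector 1 and CES2 2 and of -0.64 between Vector 1 and CES2 3, and over all tested genes these were 0.682 and -0.68. The genes in these correlations share their libraries and are no independent replicates. In every one of the 24 chains the range within each group was larger than the difference between the group means, which held for 94.1% of all tested genes in Vector and 92.0% in CES2.

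**Figure D3:**
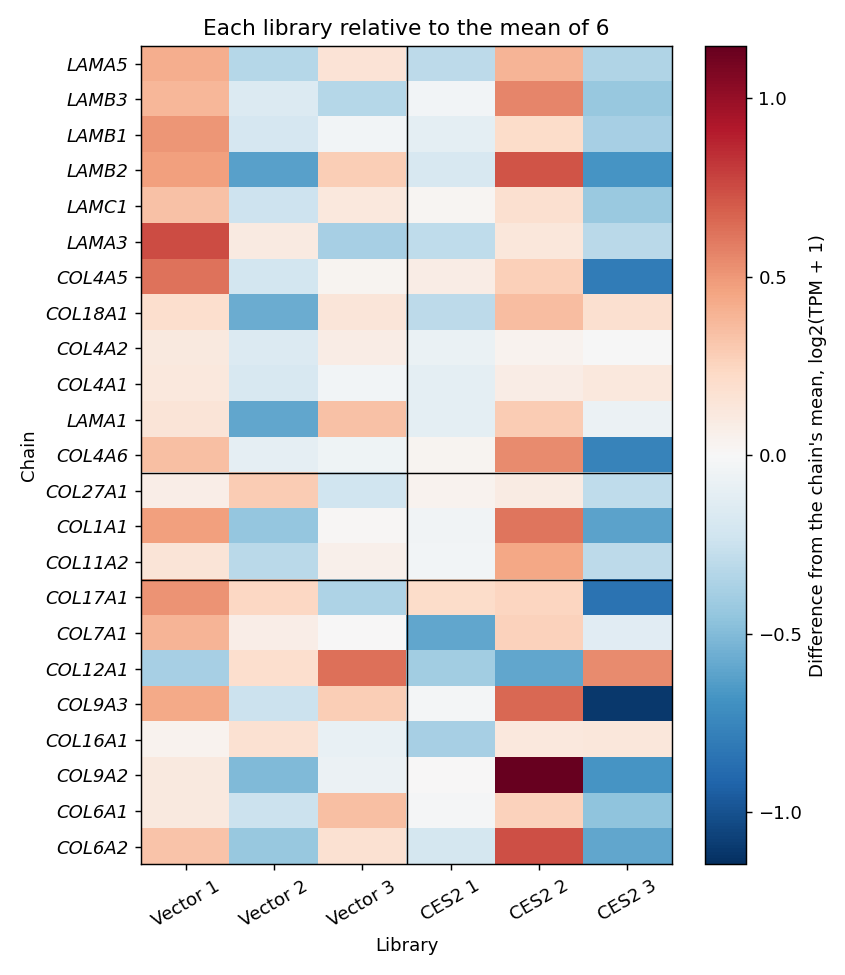
Each library's value relative to the mean of the 6 for 23 of the 24 tested chains, log2(TPM + 1), with red above and blue below the mean. The columns of Vector 1 and CES2 2 are red for most laminins, and that of CES2 3 is blue for most, while COL12A1 runs the other way.

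Properties of the listed transcripts were set beside this pattern. The listed transcripts of the tested chains had a median GC content of 59.9% and a median length of 5751 bases over a median of 43.5 exons, beside 50.2%, 2598 bases and 8 exons for all tested genes. Across genes, a library's deviation from its group mean had a Spearman rho with GC content of 0.264 in CES2 2 and -0.35 in CES2 1, but of -0.07 in Vector 1 and -0.06 in CES2 3. With listed length it lay between -0.10 and 0.12 in all 6 libraries. The part of GC content in the values of CES2 2 was not tested.

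Ratios between chains within a library cancel what raises or lowers both. COL4A2 exceeded COL4A1 by a nearly constant factor, 1.34, 1.39 and 1.47 in Vector and 1.39, 1.31 and 1.23 in CES2. COL4A5 exceeded COL4A6 by 9.77, 8.04 and 9.08 in Vector and by 8.74, 6.48 and 10.3 in CES2. The first pair was thus within 1.5-fold of each other in every library, and the second was not in any. The listed transcripts of COL4A2 and COL4A6 do not begin at the starts whose distance was given above. A relation between these ratios and the distance between starts was not tested.

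The TPM values of LAMA3 and LAMB3, partners in one laminin, were not equal. Their listed transcripts have 10661 and 4055 bases, and how TPM was computed per gene is not given in the sources used here. The part of transcript length in their ratio was not tested. LAMB3 exceeded LAMA3 by 4.29, 4.64 and 5.85 in Vector and by 6.74, 7.52 and 5.13 in CES2, so that 2 CES2 libraries lay above all Vector libraries and CES2 3 did not. LAMA5 exceeded LAMA3 by 4.94 to 9.78, the highest in Vector 3. LAMB1 exceeded LAMC1 by 1.25 to 1.56. COL6A1 to COL6A2, neighbours on chromosome 21, had ratios from 0.698 in CES2 2 to 1.73 in CES2 3. The groups overlapped in all 6 ratios computed.

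**Figure D4:**
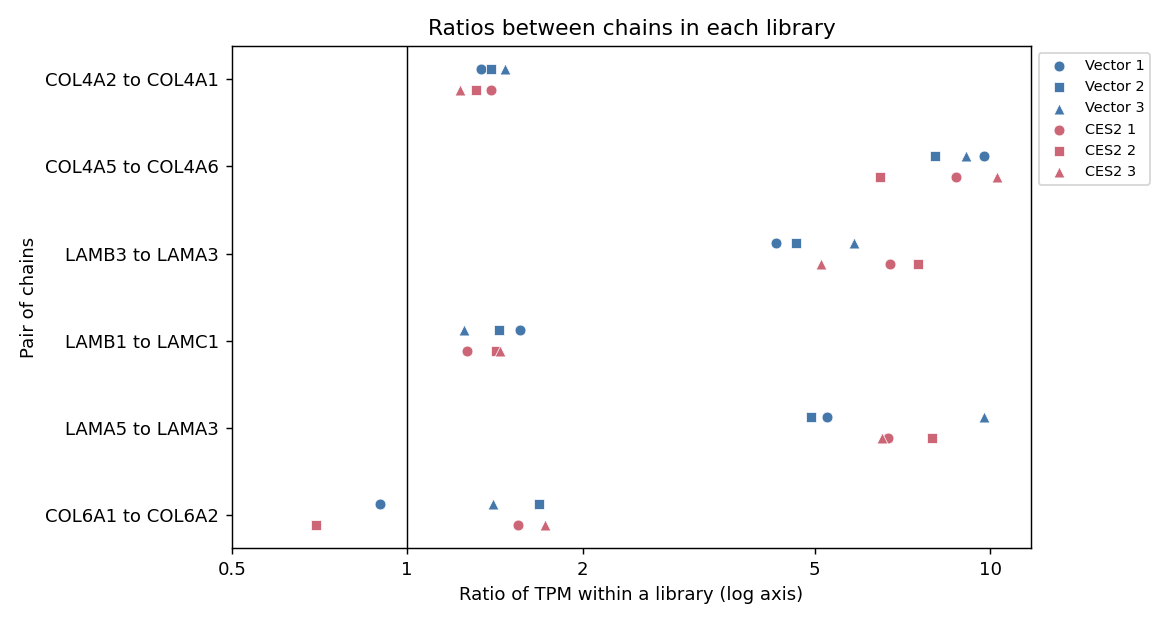
Ratio of TPM within each library between chains of one trimer or of neighbouring genes, and between the alpha chains LAMA5 and LAMA3 (log axis), Vector in blue and CES2 in red. COL4A2 to COL4A1 and LAMB1 to LAMC1 stay between 1.23 and 1.56, and the groups overlap in every row.

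The order of levels held only in part. LAMB3 exceeded LAMB1 in all 6 libraries, COL17A1 exceeded LAMA3, COL4A1 exceeded COL12A1 and LAMA1 exceeded COL9A3 in all 6. LAMA5 exceeded LAMB3 in 5 of 6 libraries. LAMB2 and LAMC1 changed places, with LAMB2 higher in 3 of 6, as did COL12A1 and COL1A1. Other neighbours in the order kept it in 3 to 5 of 6 libraries.

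The 15 chains below the filter stayed under 1 TPM, with 0.9 TPM the highest value, for COL23A1 in CES2 2. They were COL5A1, COL5A2, COL24A1, COL4A4, COL6A6, COL8A1, COL8A2, COL10A1, COL13A1, COL23A1, COL26A1, COL28A1, LAMA2, LAMA4 and LAMB4. In 2 of them, picked out after their values were seen, every CES2 library lay below every Vector library, beside 4.83% of the 1926 entries below the filter, and in 0 of them every CES2 library lay above, beside 1.97%. LAMA2 was at 0.538, 0.302 and 0.368 TPM in the Vector libraries against 0.160, 0.164 and 0.152 in the CES2 libraries. COL5A2 was at 0.788, 0.651 and 0.644 TPM in the Vector libraries against 0.569, 0.514 and 0.328 in the CES2 libraries. With no filter neither passed (limma, adjusted p = 1.00 for both). A further 17 annotated collagen and laminin genes of GENCODE release 29 had no entry among those analysed here.

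None of the tested genes listed for collagen modification and secretion passed the threshold either. TANGO2, whose part in collagen export was not examined here, was among those below 0, at a log2 fold change of -0.16. Of 24 listed, 20 were tested, 10 above 0 and 10 below, beside 36.3% and 63.7% of all tested genes, and 0 had an unadjusted p under 0.05, beside 1.09%. P3H3 at 0.456 TPM, FKBP10 at 0.655 TPM and COLGALT2 at 0.067 TPM (means over the 6 libraries) fell below the filter. PPIB, a prolyl isomerase of the endoplasmic reticulum, was at 736 ± 28.0 TPM in Vector (SD, n = 3) and had a log2 fold change of 0.19 with the smallest unadjusted p of the list, 0.254. Each CES2 library (815, 874 and 832 TPM) lay above each Vector library (721, 719 and 768 TPM) for PPIB, and the same order held for COLGALT1, a collagen galactosyltransferase, at 126, 131 and 128 TPM against 114, 119 and 121 TPM. Such an order was found in 2 of the 20, beside the 1.07% of all tested genes given above. FKBP14, another prolyl isomerase, was at -0.22, and KLHL12, an adaptor for the coats of large secretory carriers, at -0.20. SERPINH1, the collagen chaperone HSP47, was at a mean of 231 TPM over the 6 libraries and P4HB, a subunit of prolyl 4-hydroxylase, at 489 TPM.

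Of 15 trimming and crosslinking genes 8 were tested, 4 above 0 and 4 below, beside the same shares of all tested genes. LOXL2, a lysyl oxidase that crosslinks type IV collagen, had the smallest unadjusted p of this list, 0.194, with a log2 fold change of 0.74. TGM2, a transglutaminase, was at -0.50 and BMP1, a procollagen protease, at -0.13. Of 16 partners of the basement membrane 6 were tested, 1 above 0 and 5 below, beside 36.3% and 63.7% of all tested genes. AGRN, the proteoglycan agrin, was at 227 TPM and HSPG2, perlecan, at 42.6 TPM over the 6 libraries, whereas NID1, nidogen, the link between laminin and type IV collagen, was at 0.105 TPM. NPNT, an integrin ligand, was at -0.33, NTN4, a laminin-binding netrin, at -0.59 and FRAS1 at 0.17 (log2 fold changes, lowest unadjusted p = 0.309).

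Among 20 receptors and hemidesmosome genes 17 were tested, 6 above 0 and 11 below, beside 36.3% and 63.7% of all tested genes, and 1 had an unadjusted p under 0.05, beside 1.09%. That gene was ITGA2, the collagen-binding integrin alpha 2, at 99.1, 61.0 and 90.1 TPM in the Vector libraries against 43.3, 66.1 and 18.5 in the CES2 libraries, with a log2 fold change of -1.10 and a standard error of 0.42. CES2 2 lay above Vector 2, so the groups overlapped. It did not pass over all genes (limma, adjusted p = 1.00). ITGA7, the integrin alpha chain of laminin receptors in muscle, had a log2 fold change of -0.64 with an unadjusted p of 0.0603 (limma), at 1.71, 1.02 and 1.49 TPM in the Vector libraries against 0.473, 0.829 and 0.346 in the CES2 libraries. Its groups did not overlap, as in 1 of the 17, beside the 2.63% of all tested genes that were lower in this way. SDC4, a syndecan, was at 0.33. The receptors of LAMA5 and LAMA3 laminins were present, with ITGB1 at a mean of 318 TPM, ITGB4 at 239 TPM and ITGA3 at 143 TPM, and their log2 fold changes were -0.09, -0.17 and -0.13.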

How the data were processed

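The deposited table of the whole series holds 1 TPM value per gene entry and library for 3 Vector and 3 CES2 libraries. No unit stands in the header; that the deposited values are TPM was read from the columns, each of which sums to just under 1000000. Per the labels' protocols, ribosomal RNA was removed and libraries were strand-specific. Per the submitters' processing notes, HISAT2 2.1.0, StringTie 1.3.3, edgeR 3.0.8 and the builds hg38 and GRCh38 were used, with no step named; the annotation and any filters are not stated in them. TPM scales each library to one total, so a few abundant transcripts shift all others.

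The table held 0 zeros, and blanks (607 entries in at least 1 library) were read as 0. The 12210 genes that reached 1 TPM in 3 or more libraries were fitted as log2(TPM + 1), which understates the change of low genes, by limma (version 3.58.1, R version 4.3.3) with a trend on intensity and group as the only term, tested on simulated data, two-sided, with Benjamini-Hochberg adjustment. Errors of TPM are SD and those of fold changes standard errors. One tested chain enters the counts, sums and medians but is not reported by itself here. Ratios and levels were described without a test. Values in every library are given for the 10 chains with the highest means, the 3 highest of each role and any chain with an unadjusted p under 0.05 or groups apart. Up to 3 genes by smallest p from each further list are given at least by their log2 fold change. Chains, marker genes and partners beyond that were named after their values were seen. Members and lists were chosen with earlier results of these data known. Promoter windows are RefSeq's (GRCh38.p14). Coding sequences are the longest complete ones in GENCODE release 29. Python 3.11.15, pandas 2.3.3 and matplotlib 3.10.9 were used. Alternatives were single libraries left out, a replicate block, other pseudocounts, filters, scalings, no trend and library weights.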

Additional observations from a re-analysis of the deposited data

How the results depend on the processing

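No chain passed the threshold in any of 16 alternatives (lowest adjusted p of a chain 0.945), so the finding of 0 chains was the same in each, and 4 chains, LAMA3, LAMA5, COL7A1 and COL12A1, kept the sign of their difference in all that tested them. Of 361 recomputed differences of the 23 chains given by name 47 changed sign. With 3 libraries a group and a median standard error of 0.31 for the chains, these signs carry little weight. Leaving out single libraries moved the number of chains above 0 between 2 and 17, their median between -0.29 and 0.04, and the number of genes past the threshold between 1 and 2. The ranges of log2 fold changes over the 6 omissions, for chains that changed sign, were COL11A2 -0.13 to 0.24, COL16A1 -0.17 to 0.079, COL17A1 -0.50 to 0.10, COL18A1 -0.090 to 0.34, COL1A1 -0.34 to 0.27, COL27A1 -0.23 to 0.025, COL4A1 -0.017 to 0.14, COL4A2 -0.11 to 0.021, COL4A5 -0.51 to 0.031, COL4A6 -0.43 to 0.22, COL6A1 -0.30 to 0.057, COL6A2 -0.42 to 0.25, COL9A2 -0.18 to 0.73, COL9A3 -0.73 to 0.16, LAMA1 -0.20 to 0.26, LAMB1 -0.34 to 0.022, LAMB2 -0.47 to 0.23, LAMB3 -0.20 to 0.30 and LAMC1 -0.30 to 0.032. Under median rescaling and quantile normalization COL1A1 turned to 0.036 and 0.056, COL4A2 to 0.035 and 0.044 and COL6A2 to 0.019 and 0.010, the median of all genes moving from -0.057 to 0.005 and -0.012. With library weights, whose estimation stopped before reaching its tolerance and put 6.86 on CES2 1, 4 genes passed and none was a chain, while COL11A2 turned to -0.0039, COL17A1 to 0.12, COL18A1 to -0.20, COL27A1 to 0.049, COL4A1 to -0.057 and LAMA1 to -0.14. Without a filter 11 of 39 chains were above 0. Without Vector 1 and CES2 2 together, chosen after seeing the data, 2 genes passed, neither a chain, 4 of 24 chains were above 0, and COL11A2 turned to -0.043 and COL9A2 to -0.050. Whether the replicate numbers pair the libraries is not stated in the labels. Deviations of same-numbered libraries had correlations of 0.145, -0.52 and 0.375. Deviations from the mean of a group of 3 constrain each other, so these correlations cannot settle it. The fit with the replicate number as a block gave 1 gene past the threshold and 0 chains, with 6 of 24 chains above 0. The causes of these shifts were not tested.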
